A study of Nothobranchius furzeri with 8 samples.

Results

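The miRNA families mir-1, mir-133 and mir-499, known from muscle, and mir-122, mir-192, mir-194 and the joint feature mir-122a/mir-3591, known from liver and gut, were followed in brains of the annual fish Nothobranchius furzeri, the turquoise killifish (males of the strain MZM-04/10p). They were chosen by name, for the tissues they are known from, and with earlier results of these data known. They are 7 of the 324 features in the table of small RNA counts. The 8 libraries came from total RNA of tissue labelled brain, 4 from fish aged 6 weeks and 4 from fish aged 26 weeks, and no treatment or transgene is labelled in either group. The older libraries carry the number 22 in their titles, and the age label of 26 weeks was followed. Libraries are called here by their age and the number I to IV of their title, and nothing in the labels says whether each came from a separate fish, so p-values measure only the spread between these samples, which may be technical.

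A miRNA is a short RNA that guides Argonaute proteins to messenger RNAs, and the bases near its start, the seed, set most of its targets. In vertebrates, mir-1 and mir-133 are made from shared transcripts under the control of myogenic factors, and mir-499 lies within an intron of a myosin heavy chain gene. The liver's dominant miRNA is mir-122, and mir-192 and mir-194 form a cluster expressed in gut epithelium, liver and kidney. In human, mir-3591 lies opposite mir-122 at the same locus. In mouse, mir-133 has also been described in midbrain dopaminergic neurons.

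Library totals ran from 2992917 to 5715409 counts. Levels are given as CPM, the usual library-normalised count, with library sizes scaled by TMM (trimmed mean of M values), and all 7 families passed the filter on low counts along with 205 other features. The defining miRNAs of the labelled tissue were high, since 8 neuronal families (mir-124, mir-9, mir-128, mir-132, mir-138, mir-129, mir-137 and mir-153) summed to between 168300 and 195300 CPM in every library. The 7 muscle, liver and gut families together summed to between 1251 and 1483 CPM at 6 weeks and between 1268 and 1723 CPM at 26 weeks, or 0.125% to 0.172% of the scaled total. Counting intervals given here cover counting error only. The protocol names no molecular identifiers, so reads copied from the same molecule could not be set apart, and these intervals may be too narrow. In RNA from whole tissue, fewer cells of a type and less RNA per cell cannot be told apart.

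None of the 7 families passed the test of age at a Benjamini-Hochberg adjusted p of 0.05 in edgeR's quasi-likelihood test, in which 14.2% of all tested features passed (10.4% higher and 3.77% lower at 26 weeks). At an unadjusted edgeR p of 0.05 the count was also 0 of 7, against 29.2% of all tested features, and DESeq2 and limma-voom each called 0 of 7. The libraries of the 2 ages overlapped in 7 of 7 families, and 21.7% of all tested features had ages that did not overlap. With only 7 families, counts of 0 beside these shares do not set the families apart from other features. The log2 change was above 0 in 3 families and below 0 in 4, with a median of -0.10, beside -0.06 over all 212 tested features. The largest change was in the joint feature mir-122a/mir-3591. It passed in 3 of the 19 other settings run for it, and its sign was reversed in 1.

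**Figure D1:**
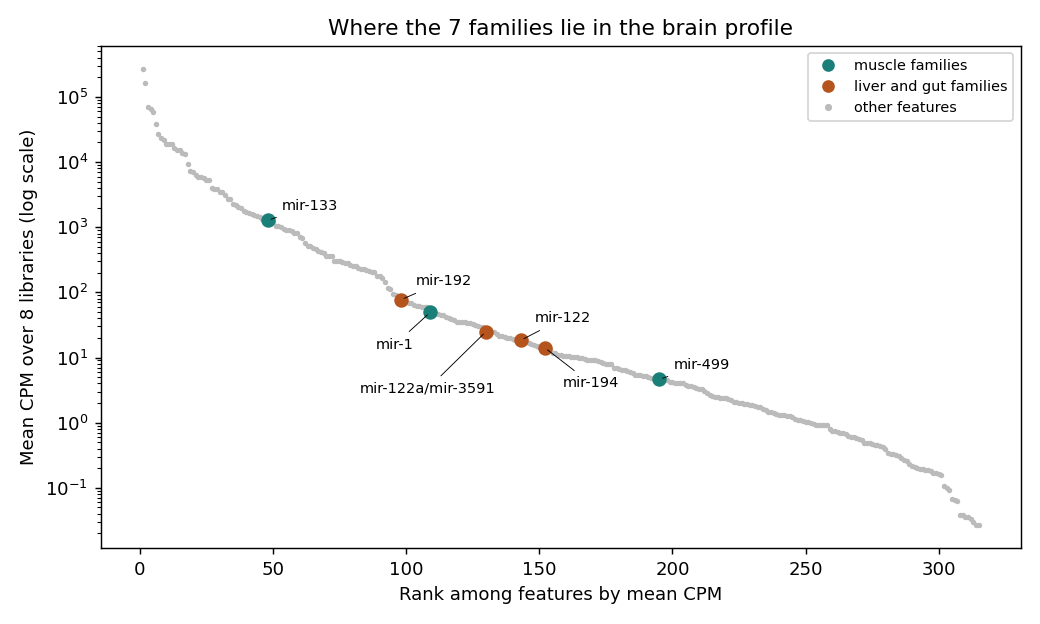
Mean CPM over the 8 libraries on a log scale, against the rank of each feature with a count. The 3 muscle families are in green and the 4 liver and gut families in orange. The family mir-133 lies in the upper part of the curve, above 1000 CPM. The family mir-499 lies near 5 CPM, and the other 5 lie between mir-133 and mir-499.

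Of the muscle families, mir-133, which in muscle restrains proliferation-linked transcripts and cardiac growth genes, was by far the most counted. At 6 weeks its level was 1227, 1242, 1263 and 1073 CPM in libraries I to IV, and at 26 weeks it was 1507, 1295, 1141 and 1434 CPM. The ages overlapped, with library I the highest at 26 weeks and library IV the lowest at 6 weeks. It held rank 42 to 48 among all features in every library, from counts of 3494 (95% exact Poisson interval 3379.1 to 3611.81) to 6373 (6217.48 to 6531.42). Its log2 change was 0.16 ± 0.14 (SE; 95% interval -0.14 to 0.47; edgeR, Benjamini-Hochberg adjusted p = 0.479), and the interval excludes a doubling or a halving. It was 0.33 without the 26-week library III (edgeR unadjusted p = 0.0399, Benjamini-Hochberg adjusted p = 0.159) and 0.099 without the 26-week library I (adjusted p = 0.677). The sign depended on scaling: with upper-quartile factors the log2 change was -0.0098, and with total counts alone it was -0.044. The spread of mir-133 between libraries was small. Its SD of log2 CPM within ages was 0.147, and 201 of the 212 tested features had a larger one (median 0.358).

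The family mir-1, which drives muscle differentiation and in vertebrate muscle is made together with mir-133, was much scarcer in these libraries. Its level at 6 weeks was 85.0, 47.9, 39.5 and 31.0 CPM in libraries I to IV. At 26 weeks it was 92.9, 32.1, 29.6 and 35.8 CPM. The library numbered I was the highest at each age, and the other 6 libraries lay within 29.6 to 47.9 CPM. Counts were 296 (95% exact Poisson interval 263.24 to 331.71) in the 6-week library I and 346 (310.5 to 384.45) in the 26-week library I, and between 101 and 170 in the others, so the excess in both libraries was larger than counting error. The change with age was -0.10 ± 0.45 (SE, log2; 95% interval -1.12 to 0.93; edgeR, Benjamini-Hochberg adjusted p = 0.932). That interval allows a change of about a factor of 2 either way. With the library number as a block, the change of mir-1 was -0.16 (95% interval -0.62 to 0.30, edgeR, Benjamini-Hochberg adjusted p = 0.560), which excludes a change of that size. The change was -0.30 without both libraries numbered I, -0.65 without the 26-week library I alone and 0.28 without the 6-week library I alone, with Benjamini-Hochberg adjusted edgeR p of 0.415, 0.186 and 0.820. It was also above 0 without the 6-week library II (0.044), the 26-week II (0.22), III (0.22) or IV (0.077).

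Other features shared the high values of libraries numbered I. In 31 of the 212 tested features (14.6%), both libraries numbered I lay above all 6 others, and the gap of mir-1 was number 11 in width among them. The profile most like that of mir-1, by the root mean square difference of mean-centred log2 CPM over the 8 libraries, was that of mir-7 (0.211), a family of neuroendocrine cells. It was followed by mir-196 (0.258) and mir-183 (0.352). For mir-7 the 2 libraries numbered I held 1616 to 1746 CPM and the 6 others 564.7 to 749.3 CPM. Another neuroendocrine family, mir-375, did not share this pattern. At 6 weeks its library I was the lowest, with 19.2 CPM against 444.5 to 721.6 CPM. At 26 weeks its library I was the highest, with 504.1 CPM against 23.5 to 132.8 CPM. The profile of mir-133 was in place 39 by likeness to mir-1, with a difference of 0.545, and that of mir-499 in place 14 with 0.440. That difference of mir-133 may reflect how far mir-1 itself varied (SD of log2 CPM within ages 0.691). Nearest to mir-133 were mir-9 (0.120), mir-144 (0.146) and mir-3596 (0.148). The measure is not scaled for spread, so a family that varies little lies near other features that vary little. The SD of mir-133 within ages was 0.147, so differences of this size need not mean a shared pattern. The library numbered I also had the smallest total at each age, 2992917 counts at 6 weeks and 3347810 at 26 weeks. These libraries had the 2 highest TMM factors (1.164 and 1.113). What the number I stands for is not labelled, and its part in the values of mir-1 was not tested.

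**Figure D2:**
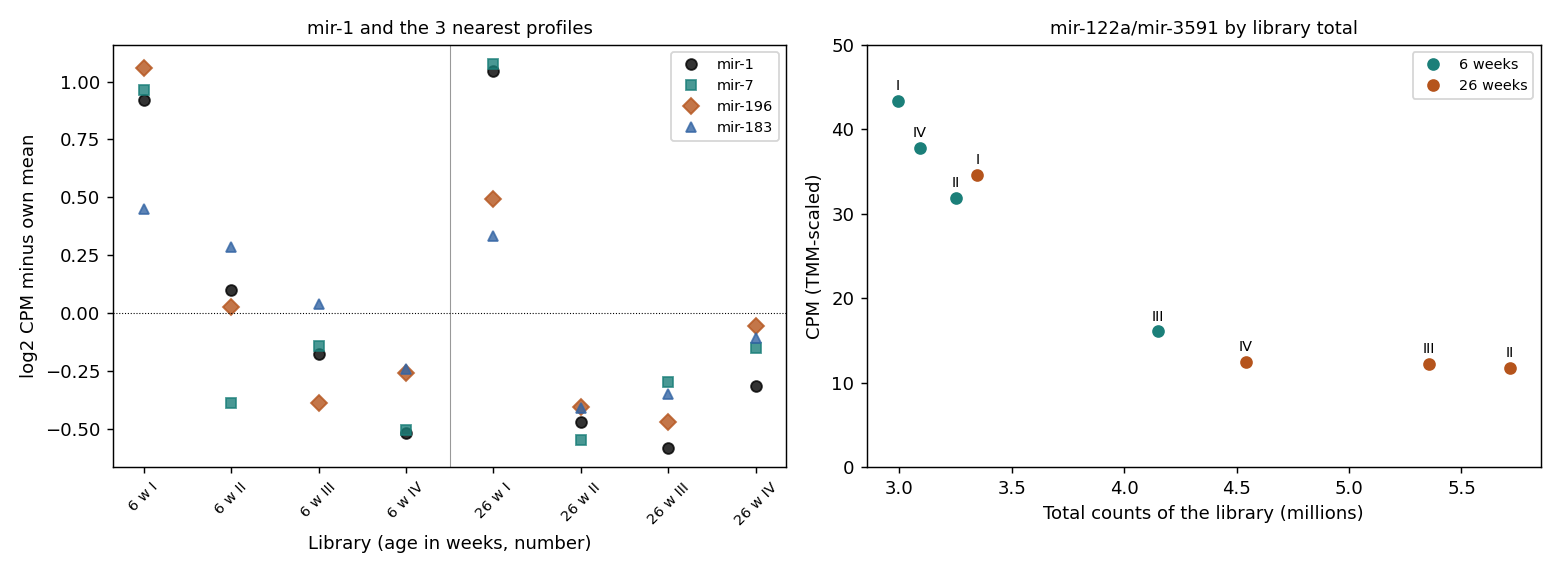
Left, log2 CPM minus its own mean in each library for mir-1 and the 3 features with the nearest profiles, mir-7, mir-196 and mir-183, with both libraries numbered I highest. Right, CPM of mir-122a/mir-3591 against the total counts of the library, in which the 4 libraries of up to 3347810 counts lie at 31.8 to 43.4 CPM and the 4 larger ones at 11.8 to 16.1 CPM.

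The third muscle family, mir-499, which in muscle takes part in slow fibre identity, was near the lower end of the tested features. Its counts were 26, 19, 16 and 11 in the 6-week libraries I to IV and 17, 17, 20 and 18 in the 26-week ones. In CPM this came to 7.47, 5.35, 3.78 and 3.38 at 6 weeks and 4.56, 3.45, 4.23 and 4.57 at 26 weeks. The lowest count of 11 had a 95% exact Poisson interval of 5.49 to 19.68 and the highest of 26 one of 16.98 to 38.1, so most libraries could not be told apart at this depth. The variance of the counts within an age, relative to that of counting alone, was 2.44 at 6 weeks and 0.30 at 26 weeks. Between the ages the log2 change was -0.25 ± 0.30 (SE; 95% interval -0.93 to 0.43; edgeR, Benjamini-Hochberg adjusted p = 0.642), and it was 0.011 without the 6-week library I. The features with the nearest profiles to mir-499 were mir-183 (0.203), mir-149 (0.233) and mir-396 (0.235).

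Within a library, the ratio of mir-133 to mir-1 does not depend on scaling. Because adapters join to some small RNAs better than to others, the ratio itself is not a ratio of molecules, but it can be compared between libraries. It was 14.4, 25.9, 31.9 and 34.4 in the 6-week libraries I to IV. In the 26-week libraries it was 16.2, 40.2, 38.4 and 39.9. The ratio was lowest in the library numbered I at each age, and the ages overlapped through the 26-week library I. In same-numbered pairs it was higher at 26 weeks in 4 of 4. On the log2 scale its means were 4.66 ± 0.57 in the younger and 4.98 ± 0.64 in the older libraries (SD of 4 each; p = 0.457 by an exact two-sided permutation test, and 0.457 after Benjamini-Hochberg adjustment over the 3 ratios compared). With libraries paired by number, an exact sign-flip test of the same difference of 0.32 gave p = 0.125, the smallest that 4 pairs allow. Without both libraries numbered I, every older ratio lay above every younger one (difference 0.37, exact permutation p = 0.1, the smallest that 3 against 3 allow). Leaving out 1 library moved the difference from 0.051 without the 6-week library I to 0.64 without the 26-week library I, with exact permutation p of 0.971 and 0.0857. The sum of the 3 muscle families was 1257 ± 100.3 CPM (SD, n = 4) at 6 weeks and 1396 ± 185 CPM (SD, n = 4) at 26 weeks. Most of this sum was mir-133, with means of 1201 CPM at 6 weeks and 1344 CPM at 26 weeks. The difference in the sum turned to -49.9 CPM with total counts alone and to -18.5 CPM with upper-quartile factors. Of the wider muscle list, no feature was named mir-206, mir-208, mir-486 or mir-378. Whether such reads were counted within another family, such as those in this ratio, is not given in the sources used here.

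**Figure D3:**
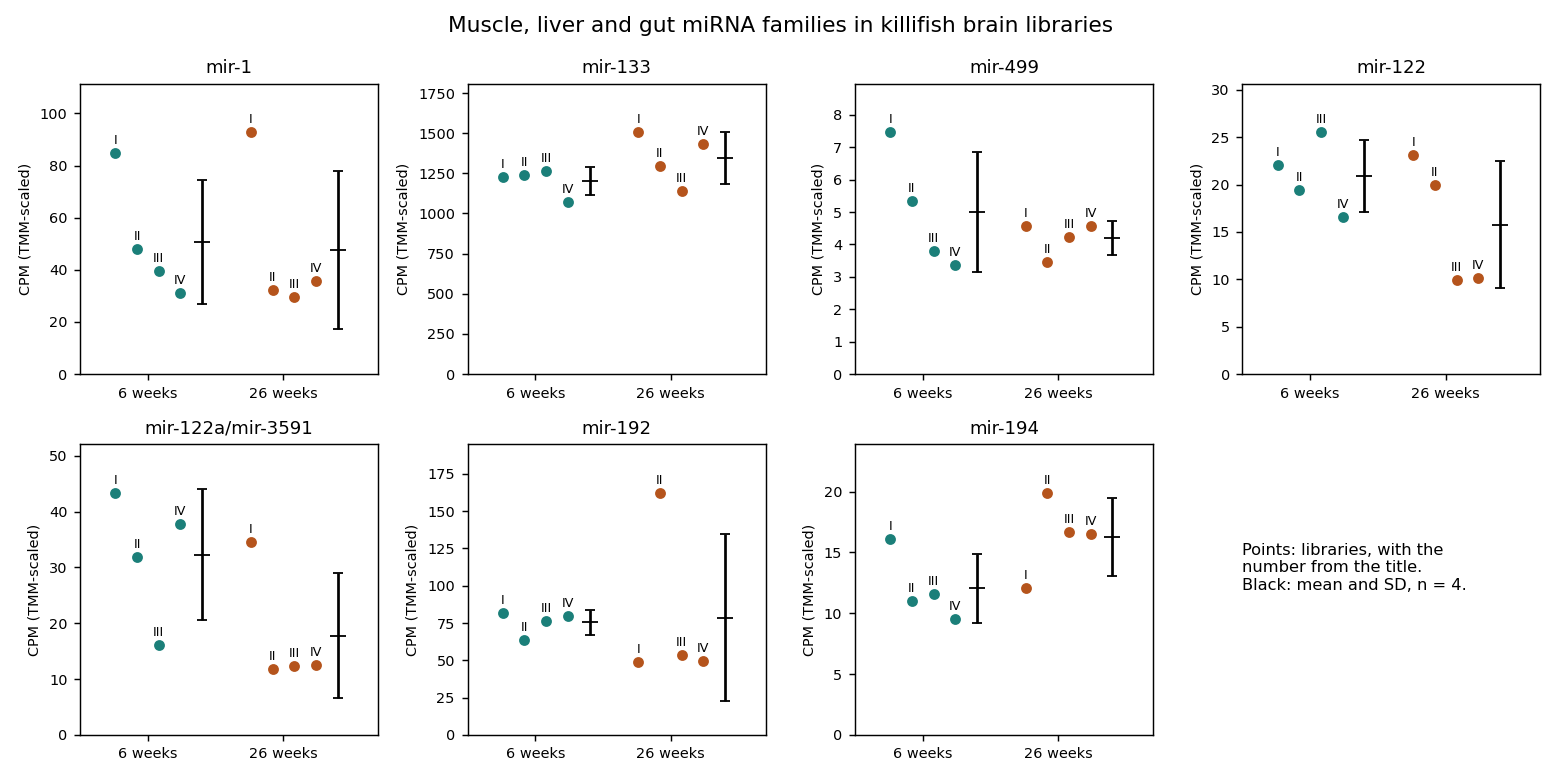
CPM of each of the 7 families in every library, with the number from the title beside each point and the mean and SD (n = 4) in black. In mir-1 the library numbered I is highest at both ages, in mir-192 the 26-week library II stands at 162 CPM, and the ages overlap in every panel.

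Among the liver and gut families, mir-192, which in mammals acts in gut epithelium and with p53, had the widest range at 26 weeks. Its 6-week libraries I to IV held 81.8, 63.4, 76.4 and 79.8 CPM. The 26-week libraries held 49.1, 162, 53.8 and 49.2 CPM. Library II was the highest of all 8, and the 3 other older libraries lay below every younger one. The count of that library was 799 (95% exact Poisson interval 744.55 to 856.38), against 183 to 323 in the 7 others, so the excess was well beyond counting error. The log2 change over all libraries was 0.06 ± 0.41 (SE; 95% interval -0.86 to 0.98; edgeR, Benjamini-Hochberg adjusted p = 0.948). Without the 26-week library II it was -0.45 (edgeR unadjusted p = 0.0495, Benjamini-Hochberg adjusted p = 0.179), so the direction did not hold without that library. The direction was also below 0 with upper-quartile factors, total counts alone, a higher CPM minimum, limma-voom, the library number as a block, and the log2 total count as a term.

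Its cluster partner mir-194, also a family of gut epithelium and liver, did not share that high value to the same degree. The levels of mir-194 were 16.1, 11.0, 11.6 and 9.52 CPM in the 6-week libraries I to IV. They were 12.1, 19.9, 16.7 and 16.5 CPM in the 26-week ones. Library II was again the highest, but close to libraries III and IV, and the ages overlapped through the libraries numbered I. In same-numbered pairs, mir-194 was higher at 26 weeks in 3 of 4 and mir-192 was lower in 3 of 4. The change of mir-194 was 0.44 ± 0.25 (SE, log2; 95% interval -0.14 to 1.01; edgeR, Benjamini-Hochberg adjusted p = 0.273), and 0.71 without both libraries numbered I (adjusted p = 0.0642). Counts of 31 to 98 stood behind these levels, and their variance within an age was 2.27 and 2.62 times that of counting alone, against 3.22 and 176.66 times for mir-192 at 6 and 26 weeks.

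The ratio of mir-194 to mir-192 was 0.198, 0.175, 0.153 and 0.121 in the 6-week libraries I to IV. At 26 weeks it was 0.248, 0.123, 0.312 and 0.337. Apart from library II, each older library had a higher ratio than every younger one. The means on the log2 scale were -2.65 ± 0.30 and -2.07 ± 0.66 (SD, n = 4 each), with an exact two-sided permutation p of 0.143 and 0.429 after Benjamini-Hochberg adjustment over the 3 ratios. Without the 26-week library II, a library singled out after its values were seen, the difference was 0.90 instead of 0.58, with an exact permutation p of 0.0286, the smallest that 4 against 3 libraries can give. The nearest profiles to mir-192 were those of mir-11 (0.370), mir-883 (0.388) and mir-10 (0.428), and mir-194 was in place 31 (0.527). The difference of mir-194 may reflect how far mir-192 itself varied (SD of log2 CPM within ages 0.604). Those nearest to mir-194 were mir-25 (0.219), lin-4 (0.223) and mir-129 (0.245).

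**Figure D4:**
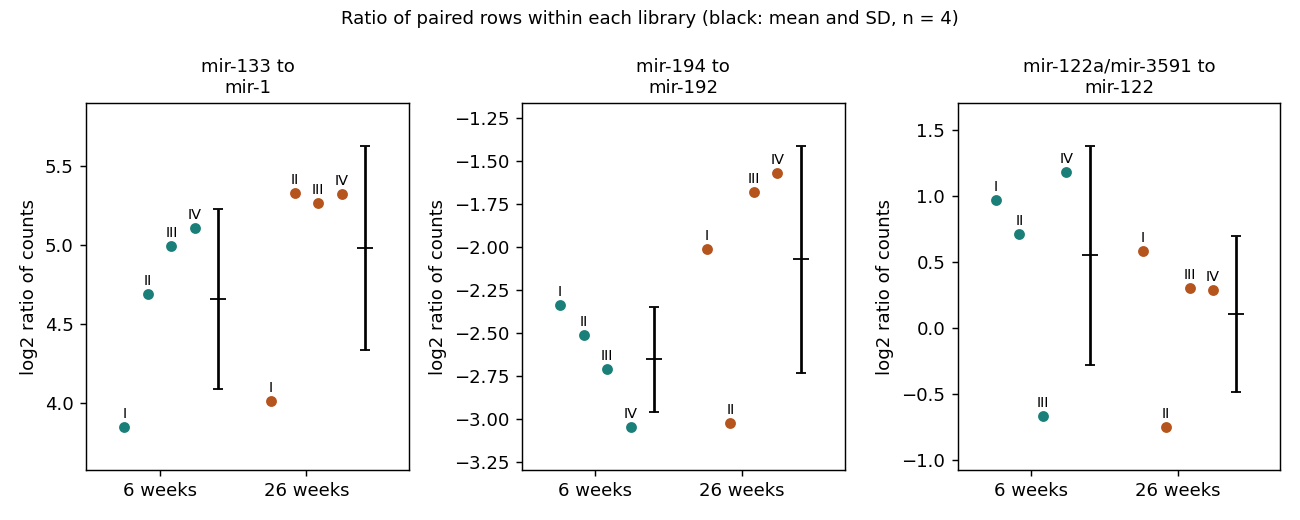
Log2 ratio of counts within each library for mir-133 to mir-1, mir-194 to mir-192 and mir-122a/mir-3591 to mir-122, with the mean and SD (n = 4) of each age in black. The ratio of mir-133 to mir-1 is lowest in the libraries numbered I, and that of mir-194 to mir-192 is higher in the 26-week libraries I, III and IV than in every 6-week library.

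The hepatocyte family mir-122, a regulator of cholesterol and lipid metabolism in liver, was present at low level in all 8 libraries. Its 6-week libraries I to IV held 22.1, 19.4, 25.5 and 16.6 CPM, from counts of 54 to 108. At 26 weeks the levels were 23.1, 19.9, 9.95 and 10.1 CPM, from counts of 40 to 98. Libraries I and II at 26 weeks lay among the younger ones, and libraries III and IV lay below all of them. The log2 change was -0.41 ± 0.33 (SE; 95% interval -1.15 to 0.33; edgeR, Benjamini-Hochberg adjusted p = 0.455). It kept its sign in the 19 other settings tried, from -0.67 to -0.13. The value of -0.67 is that of mir-122 summed with mir-122a/mir-3591. For mir-122 itself the lowest was -0.65, without the 26-week library I. Nearest in profile to mir-122 were mir-92 (0.322), mir-3179 (0.340) and mir-7641 (0.364).

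The joint feature mir-122a/mir-3591 is counted apart from mir-122, and how reads common to both were assigned, or whether strand was used, is not given in the sources used here, so the separate values of both are uncertain. At 6 weeks it held 43.4, 31.8, 16.1 and 37.8 CPM in libraries I to IV. At 26 weeks it held 34.6, 11.8, 12.3 and 12.4 CPM. The 26-week libraries II to IV lay below every 6-week library, while the 26-week library I lay among them. In same-numbered pairs it was lower at 26 weeks in 4 of 4. Over all 8 libraries the log2 change was -0.86 ± 0.45 (SE; 95% interval -1.87 to 0.15; edgeR, Benjamini-Hochberg adjusted p = 0.228).

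Whether this difference passed depended on how libraries I were treated. With the library number as a block, the paired fit, mir-122a/mir-3591 had a log2 change of -0.93 (edgeR, Benjamini-Hochberg adjusted p = 0.0469). Without both libraries numbered I it fell by 1.24 (adjusted p = 0.0308), and without the 26-week library I alone it fell by 1.41 (adjusted p = 0.0237). The 26-week library I was singled out after its values were seen, so these p-values cannot be taken at face value. Without it, every older library had a larger total (from 4542396 counts) than every younger one (up to 4151620), so age and total cannot be told apart there. Without the 6-week library I alone the log2 change was -0.67 (adjusted p = 0.465), and without any 1 of the other 6 libraries it also missed the threshold. The block called 59 of the tested features and the fit without both libraries I called 50, against 30 over all libraries. Without the 26-week library I alone, 47 of 221 tested features were called.

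The level of mir-122a/mir-3591 also moved with the total count of the library. The 4 libraries with totals up to 3347810, the 6-week I, II and IV and the 26-week I, held 113 to 151 counts of it, or 31.8 to 43.4 CPM. The 4 libraries with totals from 4151620, the 6-week III and the 26-week II, III and IV, held 49 to 68 counts, or 11.8 to 16.1 CPM. The larger libraries thus held fewer counts of it than the smaller ones, at both ages. In a fit that also held the log2 total count, the log2 change with age was 0.16 (edgeR, Benjamini-Hochberg adjusted p = 0.804). That fit called only 4 of all tested features, against 30 without the total count. Since mir-122a/mir-3591 was not among those 30, these counts do not say whether its shift from -0.86 was particular to it. With the same term, mir-1 went from -0.10 to 0.67, mir-192 from 0.06 to -0.67 and mir-499 from -0.25 to 0.074. The changes of mir-122 (-0.41 to -0.30), mir-133 (0.16 to 0.26) and mir-194 (0.44 to 0.18) kept their signs. Age and total count went apart in the 6-week library III and the 26-week library I alone, which held 16.1 and 34.6 CPM of mir-122a/mir-3591. Its nearest profiles were those of mir-287 (0.228) and the predicted miRNAs pred_125 (0.258) and pred_238 (0.297), and mir-122 was in place 47 (0.650).

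The ratio of mir-122a/mir-3591 to mir-122 was 1.96, 1.63, 0.631 and 2.27 in the 6-week libraries I to IV and 1.497, 0.594, 1.23 and 1.22 in the 26-week ones. It was below 1 in the 6-week library III and the 26-week library II, and the ages overlapped. The log2 means were 0.55 ± 0.83 and 0.11 ± 0.59 (SD of 4 each; p = 0.4 by an exact two-sided permutation test, and 0.457 after Benjamini-Hochberg adjustment over the 3 ratios). The difference of -0.44 between these means was -0.85 without the 6-week library III and -0.16 without the 26-week library II (exact permutation p = 0.0571 and 0.8286). With the counts of both features summed, the log2 change with age was -0.67 (edgeR, Benjamini-Hochberg adjusted p = 0.219). The sum of the 4 liver and gut features was 140.6 ± 17.1 CPM (SD, n = 4) at 6 weeks and 128.4 ± 58.5 CPM (SD, n = 4) at 26 weeks. The difference of -12.1 CPM was -40.6 CPM without the 26-week library II and 1.24 CPM without the 26-week library IV.

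**Figure D5:**
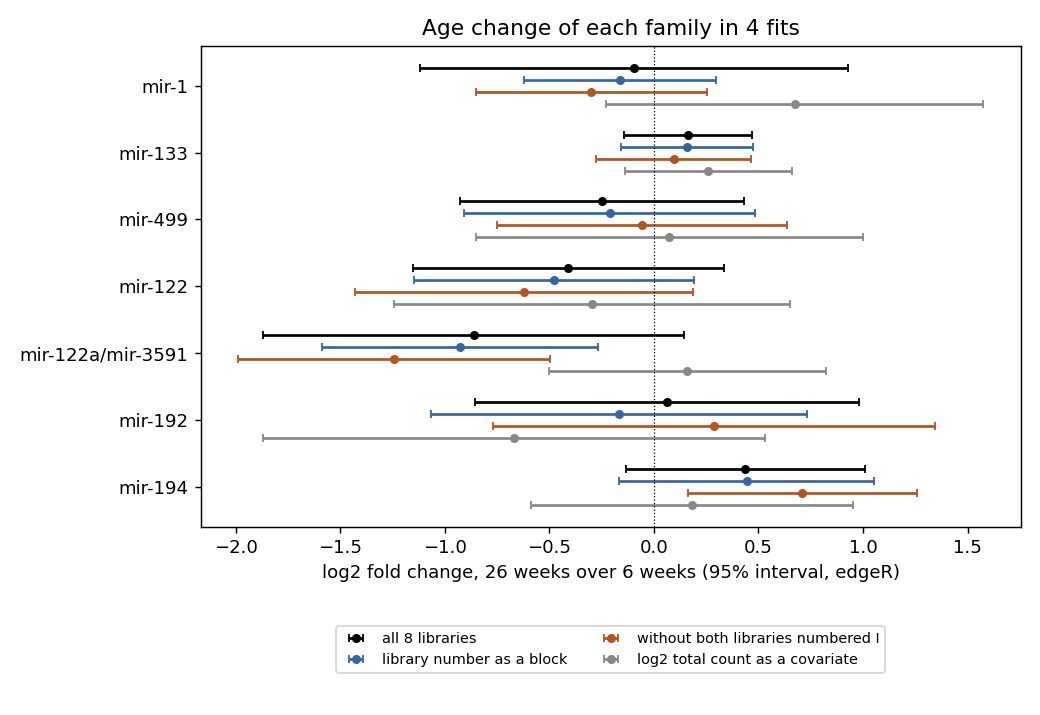
Log2 fold change of each family, 26 weeks over 6 weeks, with 95% intervals from edgeR in 4 fits: all 8 libraries, the library number as a block, without both libraries numbered I, and with the log2 total count as a further term. The interval of mir-122a/mir-3591 lies below 0 in the block fit and without libraries I, and that of mir-133 is the narrowest over all 8 libraries.

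Of the wider list of liver and gut miRNAs, mir-148 and mir-802 also had counts, and no feature was named mir-215 or mir-152. Whether such reads were counted within another family is not given in the sources used here. The family mir-148, abundant in liver and also common in other tissues, went from 904.1 ± 23.8 CPM in younger to 1182 ± 174 CPM in older libraries (SD of 4 each; log2 change 0.39 ± 0.14 SE; edgeR, Benjamini-Hochberg adjusted p = 0.107). The pancreatic and liver family mir-802 had 0 to 3 counts per library and was not tested. Over the wider lists, 0 of 3 tested muscle families and 0 of 5 tested liver and gut features passed in either direction. The share over all tested features was 14.2%. These lists include the families already described.

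Families of other cells that brain tissue can hold were summed over the same libraries. Of all tested features, edgeR called 10.4% higher and 3.77% lower at 26 weeks. Among the 8 neuronal families named above it called 2 higher (mir-124 and mir-132) and 0 lower. The oligodendrocyte families mir-219 and mir-338 summed to 8817 to 10350 CPM in the younger and 18660 to 26730 CPM in the older libraries, and 2 of 2 rose by edgeR. Blood families (mir-451, mir-144, mir-142, mir-150 and mir-223) summed to 997.1 to 1235 CPM at 6 weeks and 1580 to 1807 CPM at 26 weeks, and 4 of 5 rose by edgeR. The exception was mir-144, with a log2 change of 0.06 (edgeR, Benjamini-Hochberg adjusted p = 0.845). Vessel wall families (mir-126, mir-143 and mir-145) summed to 9022 to 13190 CPM at 6 weeks and 10660 to 18560 CPM at 26 weeks, with 0 of 3 called by edgeR. The neuroendocrine pair mir-7 and mir-375 summed to 1076 to 1635 CPM in the younger and 695.9 to 2250 CPM in the older libraries, with 0 of 2 called. The epithelial families mir-203, mir-205 and mir-8 summed to 469.2 to 1252 CPM at 6 weeks and 768.8 to 1089 CPM at 26 weeks, with 0 of 3 called. The part of these cells in the levels of the muscle, liver and gut families was not tested.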

How the data were processed

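The labels' protocols name Illumina's TruSeq kit for small RNA, which ligates adapters to both ends. Per the submitters' processing notes, the tools included SAMtools 1.3.1-9, BWA 0.7.12-r1039, Trimmomatic 0.36 and bcl2fastq 1.8.4. Genome build, annotation and counting method were not given in the sources used here. The deposited values are whole-number counts per family, without arms. Counts were tested in R 4.3.3 with edgeR 4.0.16 (quasi-likelihood, TMM, filterByExpr, no covariate) over all 212 tested features, two-sided, with Benjamini-Hochberg adjustment. SE is the absolute log2 change divided by the square root of F. Ratios used a pseudocount of 0.5. Profile likeness used log2 CPM with a prior count of 2 and was not scaled for the spread of each feature. The smallest exact p of 4 against 4 is 0.0286. Named were the 7 families, the wider marker lists and the 3 nearest profiles per family. The members, lists and rules were chosen with earlier results of these data known. Same-numbered libraries deviated together from their age means (correlation 0.287 to 0.528 across features, all above the limit of 0.1 set for a block). For libraries of different numbers the correlation reached 0.234. The number was therefore used as a block in an alternative fit, though the labels do not say that it pairs libraries. No libraries of an age were near copies (chi-square per degree of freedom at least 131). Alternatives were other scalings and filters, DESeq2 1.42.0, limma-voom (limma 3.58.1), the block, the total count as a covariate, and libraries left out. The fitting script was tested on simulated data.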

Additional observations from a re-analysis of the deposited data

Results flagged for a closer look

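Among 20 groups of 4 libraries (7 families and 3 ratios at each age), 4 held a library that stood far from the rest of its group by Dixon's criterion, where chance gives about 1 in 20 groups. For mir-1, the 26-week library I had a log2 CPM of 6.54, against 4.91 to 5.18 in the other older libraries. For mir-122a/mir-3591, the same library stood at 5.13, against 3.62 to 3.69. For the log2 ratio of mir-133 to mir-1 it had 4.02, against 5.26 to 5.33, a value that rests on the same mir-1 count. For mir-192, the 26-week library II had a log2 CPM of 7.35, against 5.63 to 5.76.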

How the results depend on the processing

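Signs were kept in all settings run for mir-122 and mir-194 and for the 3 ratios. The count of called features over the table was 30, but 59 with the library number as a block, 50 without both libraries numbered I, 4 when the log2 total count was a covariate, and 23 to 47 with 1 library left out. The block, which pairs libraries by number, moved mir-122a/mir-3591 to -0.93 (edgeR, Benjamini-Hochberg adjusted p = 0.0469) and mir-192 to -0.17, and changed no other call or sign among the 7 families. Without both libraries numbered I, mir-122a/mir-3591 was at -1.24. With the covariate, log2 changes turned to 0.67 for mir-1, 0.074 for mir-499, 0.16 for mir-122a/mir-3591 and -0.67 for mir-192. Upper-quartile factors turned mir-133 to -0.0098, mir-192 to -0.070 and the difference of the summed muscle families from 138.7 to -18.5 CPM, and total counts alone turned them to -0.044, -0.20 and -49.9 CPM. Those scalings shifted the median of all tested features from -0.06 to -0.24 and -0.29. No filter turned mir-1 to 0.033, limma-voom turned mir-192 to -0.13, and a minimum of 10 CPM in 4 libraries turned it to -0.0086 and left mir-499 untested. With 1 library left out, log2 changes ran from -0.65 to 0.28 for mir-1, -0.32 to 0.011 for mir-499, -1.41 to -0.55 for mir-122a/mir-3591, -0.45 to 0.29 for mir-192, and 0.099 to 0.33 for mir-133. Differences in log2 ratios ran from 0.41 to 0.90 for mir-194 to mir-192, 0.051 to 0.64 for mir-133 to mir-1 and -0.85 to -0.16 for mir-122a/mir-3591 to mir-122. The cause of these shifts was not tested. Counts of 11 to 26 limit what can be seen of mir-499.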
